A study of Harpegnathos saltator with 75 samples.

Results

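The fat bodies of day 10 gamergates and day 10 workers of the jumping ant Harpegnathos saltator were compared, with 5 libraries per caste. These 10 libraries, taken by their labels, are part of 75 libraries from fat body, ovary and non-visual brain. Days are counted from the start of the dueling tournament in which workers compete to reproduce, and the ants of day 0 were all labelled as workers. The ants of day 3 and day 10 were labelled as gamergates, which are workers that reproduce, or as workers, and the study's design calls both castes prospective. No genotype, treatment or age beyond the day is labelled. Whether a library holds 1 ant or several, and whether replicates came from different ants, is not stated, and the p-values therefore speak only of the spread between these libraries, which may be technical.

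The fat body is the insect tissue that stores fat, glycogen and protein, and that secretes most proteins of the blood. In egg-laying insects it supplies the ovary with yolk precursor proteins, and juvenile hormone, ecdysteroids and insulin signals are known to regulate this. The count table identifies genes only by number. Of its 20659 identifiers, 0 matched the RefSeq gene table used here (assembly Hsal_v8.6), so no gene can be tied to these roles and no sequence is printed. At most 2 identifiers per direction are named, and the others are described as groups.

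Each fat body library of day 10 held 1155816 to 4467790 reads assigned to genes, with a median of 1635439. The tissue label was checked against 398 genes that were enriched in fat body over ovary and brain in the day 0 libraries. These genes held 53.0% to 70.3% of assigned reads in gamergate fat bodies and 37.1% to 54.6% in worker fat bodies, against 2.01% to 7.14% in the brain and 1.59% to 4.25% in the ovary. Genes enriched in ovary at day 0 held 0.0354% to 0.131% of reads in gamergate fat bodies and 0.0554% to 0.149% in worker fat bodies, against 2.58% to 8.0% in ovaries. Of these 182 genes, 12 had no read in any gamergate fat body and 23 none in any worker fat body. Genes enriched in brain held 0.120% to 0.222% of reads in gamergates and 0.194% to 0.490% in workers, against 10.8% to 19.3% in brains. Of these 822 genes, 177 had no read in gamergate fat bodies and 141 none in worker fat bodies. The counts of genes with no read, for ovary and brain, depend on depth and on the reads taken by other genes. They were not brought to equal depth, so they do not compare the castes. At day 10 every gamergate library was sequenced on lane 2 and every worker library on lane 1 of the same flow cell, so caste and lane cannot be told apart within day 10. At day 3, too, every gamergate library was on a lane 2 and every worker library on a lane 1, so the same limit holds there.

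Between the castes, 158 genes were higher and 177 lower in gamergate fat bodies at day 10, out of 7941 genes tested. This was 4.22% of the genes tested (1.99% higher and 2.23% lower; edgeR quasi-likelihood test, adjusted p below 0.05). The higher genes differed by a median of 2.58-fold (quartiles 1.99 and 4.22) and the lower genes by a median of 2.69-fold (quartiles 2.12 and 4.87). In a bulk tissue, fewer cells of a type and less RNA per cell cannot be told apart. More than 2-fold differences were called for 257 genes (3.24% of those tested). No gamergate library overlapped the workers in 113 of the 158 and 83 of the 177 genes. Among all genes tested, 367 (4.62%) had no overlap, 208 of them higher (2.62%) and 159 lower (2%) in gamergates. The lack of overlap was measured on the libraries that gave the calls, and is a description.

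**Figure D1:**
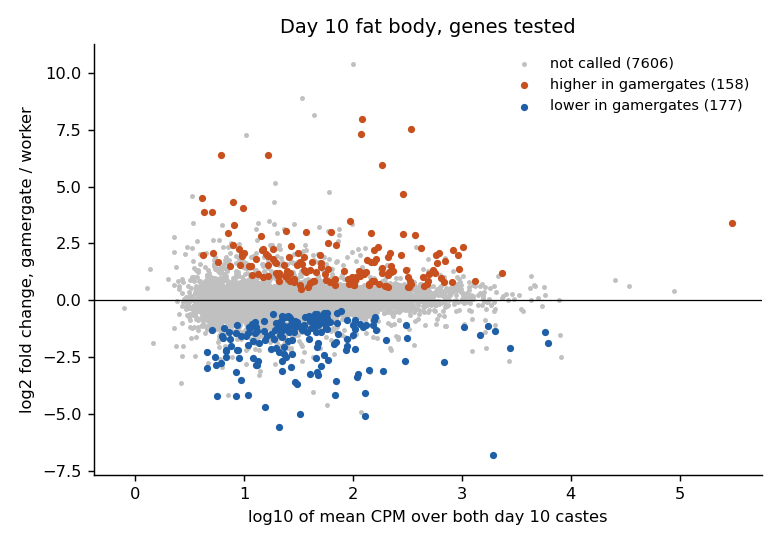
Log2 fold change between gamergate and worker fat bodies at day 10 (vertical axis) against log10 of the mean CPM over both castes (horizontal axis), 1 point per gene tested. Orange points are the 158 genes higher and blue points the 177 genes lower in gamergates, and the point at the far right is HSALG009096.2, the gene with the most reads.

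The size of the called set depended on single libraries and on scaling. Leaving out 1 library gave counts of 174, 201, 178 and 164 without gamergate libraries 1, 2, 3 and 4, and of 153 and 182 without worker libraries 1 and 2. It was 257 without gamergate library 5, and 111 genes (58 higher, 53 lower) were called in all 10 such fits. With assigned reads alone as library size, 68 genes were higher and 4104 lower, and the median difference of all genes tested moved from -0.03 to -0.72 on the log2 scale. With flow cell and lane as a term, which rests on the few day 0 libraries sharing those lanes, 25 genes were called, 22 higher and 3 lower in gamergates, and 4 of the 25 were among the 335. The median size of the log2 fold change of the 335 genes, without its sign, was then 1.25 in place of 1.41, and their median standard error 0.843 in place of 0.350.

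**Figure D2:**
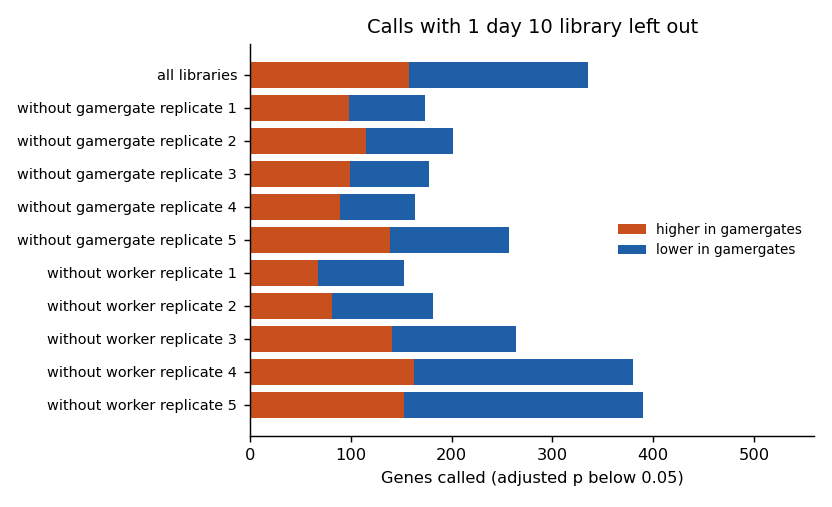
Number of genes called between the castes (horizontal axis) with all libraries and with each day 10 fat body library left out in turn (rows), split into genes higher (orange) and lower (blue) in gamergates. Counts run from 153 without worker replicate 1 to 390 without worker replicate 5, against 335 with all libraries.

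The most abundant gene by reads over the 25 fat body libraries, HSALG009096.2, was higher in gamergates. Its share of assigned reads was 43.4%, 44.5%, 44.5%, 44.5% and 9.85% in gamergates 1 to 5. In workers 1 to 5 it was 1.24%, 0.536%, 0.290%, 14.7% and 11.5%. Gamergates 1 to 4 thus lay within 1 narrow range above all workers, while gamergate 5 lay below workers 4 and 5, so the castes overlapped. The fit gave a log2 fold change of 3.39 with an SE of 0.82 (adjusted p of the edgeR test 0.0191). It was 4.29 without worker library 4 and 4.01 without every library numbered 5. The call ended when worker library 1 was left out (edgeR adjusted p = 0.0558), when weakly expressed genes were kept (0.0565) and when the 10 libraries were fitted by themselves (0.150). The shares at day 0 were 12.8% to 18.2%. At day 3, gamergates 1 to 4 stood at 25.4% to 34.5% and gamergate 5 at 11.9%, and workers at 12% to 23.6%, so the library numbered 5 was the lowest gamergate at both days. The difference from the ovary, where the castes had a log2 fold change of 0.11 (SE 0.58), passed the test (log2 difference 3.32, SE 1.00, edgeR adjusted p = 0.0161). The difference from the brain did not (log2 difference -0.44, SE 0.98, edgeR adjusted p = 0.970), and neither did that from day 3 in the fat body (2.53, SE 1.08, edgeR adjusted p = 0.326).

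**Figure D3:**
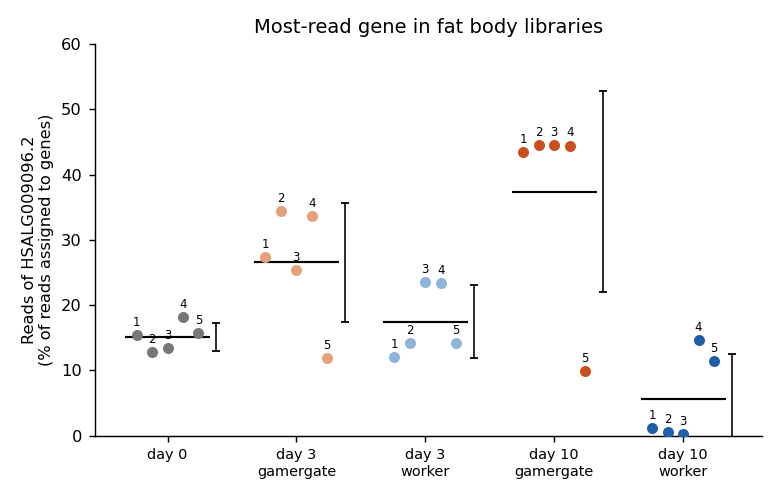
Share of assigned reads taken by HSALG009096.2 (vertical axis, percent) in the 25 fat body libraries by group. Points carry replicate numbers, lines are group means and bars beside them are SD (n = 5, cut off at 0), and gamergate 5 of day 10 at 9.85% stands apart from the other 4 at 43.4% to 44.5%.

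Several values of the whole library moved with this gene. The 10 most-read genes of each library held 53.6% ± 9.77 of the assigned reads of gamergates and 27.6% ± 5.55 of those of workers (SD, n = 5; two-sided exact permutation p = 0.00794, which 5 against 5 cannot go below; 0.0238 after adjustment over 9 values). All 5 gamergates lay above all workers. Without HSALG009096.2 the shares were 26.2% ± 2.94 and 23.9% ± 1.41 (exact permutation p = 0.151). Fat-body-enriched genes held 65.5% ± 7.07 and 44.3% ± 7.55 (exact permutation p = 0.0159, adjusted 0.0286), with 4 of 5 gamergates above all workers. Without that gene they held 44.5% ± 2.80 and 41.2% ± 4.10 (exact permutation p = 0.183). Thinned to 1155816 reads, gamergate libraries had 10170 ± 345 genes with a read and worker libraries 10840 ± 500 (exact permutation p = 0.0714, adjusted 0.0804). Without that gene, at 767105 reads, they had 10280 ± 302 and 10380 ± 367 (exact permutation p = 0.722).

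Reads outside the gene counts also differed between castes. Reads in no annotated gene were taken as a share of all reads in the count table, in genes or outside them. They made up 23.7% ± 5.21 in gamergates and 33.4% ± 2.42 in workers (exact permutation p = 0.0159, adjusted 0.0286, with 4 of 5 gamergates below all workers). With HSALG009096.2 taken out of the total, the shares were 31.1% ± 2.10 and 34.5% ± 2.48 (exact permutation p = 0.0397, adjusted 0.159). Reads aligned to several places made up 12.4% ± 1.70 in gamergates and 8.31% ± 0.938 in workers (exact permutation p = 0.00794, adjusted 0.0238). All 5 gamergates lay above all workers here, and taking that gene out of the total gave 16.5% ± 2.24 against 8.61% ± 1.09 (exact permutation p = 0.00794, adjusted 0.0635). Ambiguous reads, which overlap more than 1 gene, were lower in gamergates, at 0.779% ± 0.116 against 1.28% ± 0.182 (exact permutation p = 0.00794, adjusted 0.0238), with all 5 below all workers. With that gene out of the total they were 1.04% ± 0.191 against 1.32% ± 0.187 (exact permutation p = 0.0635, adjusted 0.169). Ovary-enriched genes held 0.0676% ± 0.0386 and 0.0992% ± 0.0398 (exact permutation p = 0.238). Brain-enriched genes held 0.177% ± 0.0398 and 0.304% ± 0.121 (exact permutation p = 0.0476, adjusted 0.0612), and with that gene out of the total 0.295% ± 0.0960 and 0.318% ± 0.109 (exact permutation p = 0.770, adjusted 0.833).

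The 3 genes named beside HSALG009096.2 had the smallest adjusted p among genes called in all 10 leave-one-out fits that differed more than 2-fold without overlap. In gamergates HSALG006862.2 stood higher, at 39.0, 13.4, 41.2, 54.1 and 17.0 CPM (reads per 1e+06 assigned, with scaled library sizes) in libraries 1 to 5. Workers 2, 3 and 5 had 0 reads of it, worker 1 had 1 read (0.289 CPM) and worker 4 had 3 reads (2.30 CPM). Every gamergate was thus above every worker, with a log2 fold change of 6.37 (SE 0.79, edgeR adjusted p = 0.000182). This rests on 4 worker reads, and it was 7.77 without worker library 4 and 5.76 without worker library 2. At day 0 the gene stood at 15.5 ± 8.16 CPM (SD, n = 5). Gamergates of day 3 had 4.22 ± 2.88 CPM and workers of day 3 had 2.55 ± 2.01 CPM, so the level at day 0 lay between the 2 castes of day 10. Its caste difference was larger at day 10 than at day 3 (log2 difference 5.85, SE 1.11, edgeR adjusted p = 0.0276). It was also larger than in the brain (log2 difference 6.60, SE 0.86, edgeR adjusted p = 1.28e-06), where gamergates had 32.1 ± 5.98 CPM and workers 35.0 ± 6.64 CPM.

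HSALG011541.2 was lower in gamergates, at 11.5, 11.2, 11.2, 16.5 and 15.8 CPM. Workers 1 to 5 had 70.6, 66.3, 106.9, 78.2 and 64.6 CPM, so the lowest worker lay far above the highest gamergate. On the log2 scale gamergates differed from workers by -2.54 (SE 0.34; adjusted p of the edgeR test 0.000198). Day 0 libraries held 39.9 ± 10.2 CPM, between the castes. Day 3 gamergates held 22.4 ± 8.63 CPM and day 3 workers 31.5 ± 17.2 CPM, and the change in the caste difference from day 3 to day 10 missed the threshold (log2 difference -2.01, SE 0.46, edgeR adjusted p = 0.0573). The caste difference was lower than in the brain (log2 difference -2.66, SE 0.49, edgeR adjusted p = 0.000632) and also than in the ovary (-2.12, SE 0.49, edgeR adjusted p = 0.00179).

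HSALG007502.2 was likewise lower in gamergates, at 179.9, 207.6, 226.7, 191.8 and 91.7 CPM. Workers 1 to 5 had 944.5, 1706, 1606, 675.1 and 1016 CPM, and the castes did not overlap. The difference on the log2 scale was -2.73 with an SE of 0.38 (adjusted p of the edgeR test 0.000259). Day 0 libraries held 288.7 ± 78.6 CPM, so the gamergates lay nearer to day 0 than the workers did. Gamergates of day 3 had 388 ± 148 CPM and workers of day 3 had 501 ± 305 CPM, with a change in the caste difference that missed the threshold (log2 difference -2.36, SE 0.51, edgeR adjusted p = 0.0531). The difference from the ovary passed it (-3.00, SE 0.78, edgeR adjusted p = 0.00522), and that from the brain did not (-2.75, SE 0.78, edgeR adjusted p = 0.0556). With flow cell and lane as a term, the calls of HSALG006862.2, HSALG011541.2, HSALG007502.2 and HSALG009096.2 ended (edgeR adjusted p = 0.173, 0.242, 0.460 and 1), with log2 fold changes of 5.83, -2.79, -2.77 and 2.85.

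**Figure D4:**
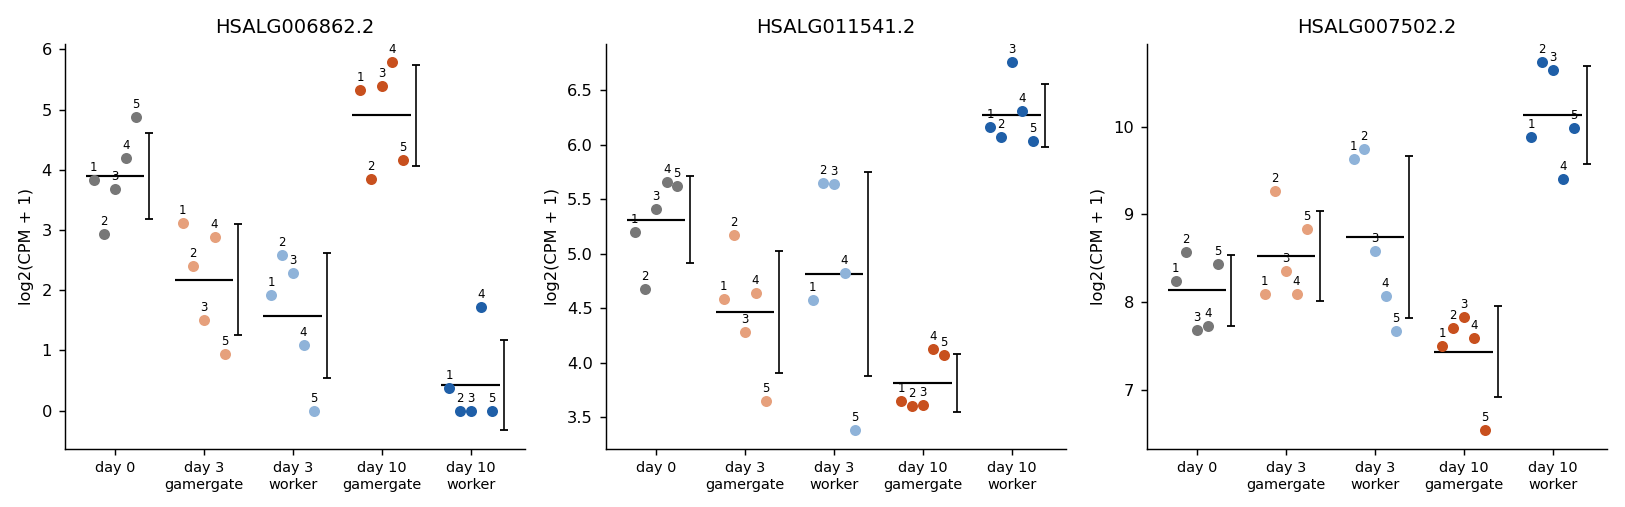
Level of 3 named genes as log2(CPM + 1) (vertical axes, each with its own range) in the 25 fat body libraries by group. Points carry replicate numbers, lines are group means and bars SD (n = 5); HSALG006862.2 is higher in all day 10 gamergates than in all day 10 workers, and HSALG011541.2 and HSALG007502.2 are lower.

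Day 0 levels lay between the castes for most called genes. By mean log2 CPM this held for 117 of the 158 genes higher in gamergates and 115 of the 177 genes lower there. For 101 of the higher genes day 0 was nearer to the day 10 workers, and for 116 of the lower genes it was nearer to the day 10 gamergates. The higher genes had a median log2 difference from day 0 of 0.92 in day 10 gamergates and -0.44 in day 10 workers. The lower genes had medians of -0.41 in gamergates and 1.00 in workers, and over all genes tested the medians were -0.05 and -0.02. Both comparisons share the day 0 libraries, and the genes were chosen on the day 10 libraries, so these values are a description. The position of day 0 was not counted over all genes tested, so these counts have no base to be judged against. Genes chosen for a wide gap between the castes also leave more room for a day 0 level inside it.

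The single libraries differed within each caste on these genes. The median of the 158 higher genes above day 0 was 0.97, 0.92, 1.03, 1.06 and 0.63 on the log2 scale in gamergates 1 to 5. In workers 1 to 5 it was -0.60, -0.43, -0.34, -0.36 and -0.45. Gamergate 5 was therefore the nearest of its caste to the workers, and it was the lowest gamergate for 88 of the 158 genes, against 2095 of all 7941 genes tested. For the 177 lower genes the medians were 1.11, 0.98, 1.19, 0.36 and 0.45 in workers 1 to 5 and -0.42 to -0.27 in gamergates. Workers 4 and 5 lay nearest to the gamergates there, and they were the lowest worker for 59 and 63 of the 177 genes, against 1470 and 2130 of all genes tested. At day 3 the higher genes had medians of 0.12 to 0.76 in gamergates and -0.20 to 0.52 in workers, and the lower genes -0.05 to 0.13 and -0.11 to 0.31, with overlap between castes in both sets. The test of each gene at day 3 called 4 of the 7941 genes (0.0504%), and the test of the change from day 3 to day 10 called 13 (0.164%), 7 of them upward (0.0882%) and 6 downward (0.0756%) in gamergates relative to workers. The latter count was 8, 8 and 3 without gamergate libraries 1, 2 and 4, and 7, 22, 26 and 42 without worker libraries 1, 3, 4 and 5.

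**Figure D5:**
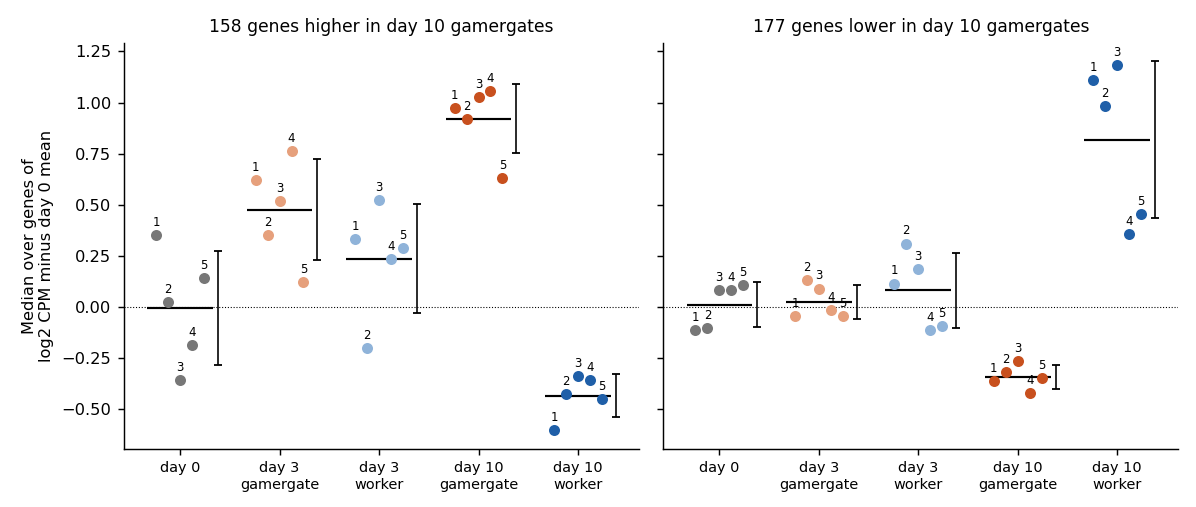
Median over the called genes of log2 CPM minus the gene's day 0 mean (vertical axis) in each fat body library, for the 158 genes higher (left) and the 177 lower (right) in day 10 gamergates. Points carry replicate numbers, lines are group means and bars SD (n = 5); among higher genes gamergate 5 is at 0.63 and the other gamergates at 0.92 to 1.06, and among lower genes workers 4 and 5 are at 0.36 and 0.45 and the other workers at 0.98 to 1.19.

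By level, the share of genes called was lowest among weakly expressed genes. It was 0.961% of 1457 genes below 10 CPM in the higher caste, 3.86% of 5182 genes at 10 to 100 CPM, 8.71% of 1183 genes at 100 to 1000 CPM and 15.1% of 119 genes above 1000 CPM. The class at 10 to 100 CPM held 72 higher and 128 lower genes, and that at 100 to 1000 CPM 71 higher and 32 lower genes. Above 1000 CPM there were 9 higher and 9 lower genes, 6 and 7 of them fat-body-enriched. More than 16-fold differences were measured for 32 genes, of which 20 passed the test, 10 in each direction. The 10 higher of these had median levels of 134.9 CPM for gamergates, 1.07 CPM for workers and 9.31 CPM at day 0. The 10 lower had 1.41 CPM for gamergates, 52.6 CPM for workers and 2.27 CPM at day 0. No gene tested was below 1 CPM in all libraries of one caste and above 5 CPM in all of the other (0 genes).

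The called genes together held a small part of the reads once HSALG009096.2 was set aside. The other higher genes held 3.74% to 5.29% of the remaining reads in gamergates and 1.85% to 2.09% in workers, against 2.11% to 3.45% at day 0. The lower genes held 1.55% to 1.98% of the remaining reads in gamergates and 4.55% to 8.48% in workers, against 1.80% to 2.72% at day 0. With HSALG009096.2 kept in the total, these shares were 0.905% to 1.40%, 3.95% to 8.46% and 1.57% to 2.30%. These genes were chosen for this difference, so the shares are a description.

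By tissue of enrichment at day 0, 22 of 386 fat-body-enriched genes tested were higher and 20 lower in gamergates (10.9% called, median log2 fold change 0.09 over all 386). Of 98 brain-enriched genes tested in the fat body, 4 were higher and 5 lower (9.18% called), and of 39 ovary-enriched genes 0 were higher and 3 lower (7.69%). Genes enriched in none of the 3 tissues made up the bulk, with 132 higher and 149 lower of 7418 (3.79%). The part that brain or ovary RNA in the fat body libraries had in these calls was not tested.

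The called genes were also measured in brain and ovary at day 10, in other libraries. Of the 158 genes higher in gamergate fat bodies, 136 were tested in the brain, and 4 were higher and 0 lower there (2.94%, against 0.243% of all 9886 genes tested in the brain), with a median log2 difference of 0.18 against 0.02 over all genes. Of these 4, 3 were fat-body-enriched, and HSALG009096.2 was 1 of them, with 15490 ± 4283 CPM for gamergate brains against 1092 ± 1095 CPM for worker brains (SD, n = 5), a log2 difference of 3.83 with an SE of 0.69 (adjusted p of the edgeR test 0.00740). Of the 177 lower genes, 153 were tested in the brain and 2 were lower there (1.31%, against 0.0607% of all genes), with a median of -0.03. In the ovary 22 of 133 tested were higher and 42 lower (48.1%) for the first set. For the second set they were 20 and 49 of 156 (44.2%). The totals were near the 44.1% of all 9150 genes called there, but the directions were not. Over all genes 22.6% were higher and 21.5% lower, while both sets held more lower than higher genes. Their median log2 differences in the ovary were -0.29 and -0.16, against 0.008 over all genes. The first set thus leaned opposite to its direction in the fat body. The caste difference itself differed between fat body and brain for 134 of 11156 genes (1.2%; positive for 39, 0.35%, and negative for 95, 0.852%), and between fat body and ovary for 1793 genes (16.1%; positive for 960, 8.61%, and negative for 833, 7.47%; edgeR quasi-likelihood test).

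The spread between replicates was measured in each group. The median over genes of the SD of log2 CPM was 0.348 in day 10 gamergates and 0.388 in day 10 workers, against 0.334 at day 0 and 0.368 and 0.376 in day 3 gamergates and workers. Over the 335 called genes it was 0.365 in gamergates and 0.546 in workers. Without the libraries numbered 5 the medians over all genes were 0.302 in gamergates and 0.342 in workers.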

How the data were processed

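Polyadenylated RNA was sequenced as 75 libraries, and the 25 fat body libraries were analysed as 5 groups of 5. The deposited table gives raw read counts per gene, not normalized by the authors. The submitters' processing notes name Trimmomatic for trimming, STAR 2.5.3a for alignment and HTSeq for counting. The genome build, annotation and strand setting were not given in the sources used here, so overlapping, antisense and near-identical genes cannot be recognised. The 5 summary rows for reads outside genes stayed out of library sizes and tests, and their shares are reported as values of their own.

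Fat body counts were fitted with edgeR 4.0.16 in R 4.3.3 (filterByExpr with minimum count 10 and total 15, TMM scaling, robust quasi-likelihood test, 1 coefficient per group, Benjamini-Hochberg adjustment over 7941 genes, biological coefficient of variation 0.344). TMM factors were 0.618 to 0.724 in gamergates 1 to 4, 1.07 in gamergate 5 and 0.991 to 1.45 in workers. A standard error is the size of the log2 fold change over the root of the F statistic. Comparisons between tissues used all 75 libraries. Log2 levels have a prior count of 2. Values of whole libraries were tested by exact permutation (two-sided, 252 splits, adjusted over 9 values). With HSALG009096.2 left out, the adjustment ran over the same values less the share of that gene. Tests with 1 library left out had fewer splits.

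Enriched genes had a log2 fold above 3 over both other tissues at day 0, each with an edgeR adjusted p below 0.05, and at least 10 CPM. Named genes were the most-read gene and those with the smallest adjusted p among genes called in every leave-one-out fit, more than 2-fold, at 10 CPM or more and without overlap. Gene lists by function could not be applied, since no identifier was paired with a name. Members and lists were chosen with earlier results of these data known. Alternatives were other scaling, filter, sample sets, block and lane terms, and DESeq2 1.42.0. No pair of replicates agreed within sampling noise (lowest chi-square per degree of freedom 5.38).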

Additional observations from a re-analysis of the deposited data

Results flagged for a closer look

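Gamergate fat body 5 of day 10 lay apart from the other 4 gamergates in 5 values. HSALG009096.2 took 9.85% of its assigned reads against 43.4% to 44.5%, and stood at 92550 CPM against 618400 to 722100 CPM. Its 10 most-read genes held 36.3% of reads against 56.5% to 59.7%, fat-body-enriched genes 53.0% against 67.3% to 70.3%, and reads in no gene made up 33.02% against 20.7% to 22.1%. The shares are linked, since each total contains the reads of HSALG009096.2. Worker fat body 4 of day 10 stood at 2.30 CPM of HSALG006862.2, which is 3 reads, against 0 to 0.289 CPM in the other workers. Of 30 groups of 5 values examined in this way 6 stood out. Chance gives about 5% for separate groups, but 5 of the 6 come from gamergate 5 in linked values. The count therefore cannot be set against that rate.

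The caste difference of day 10 fat bodies differed from that of other libraries in 3 tests of the difference itself (edgeR quasi-likelihood test). It differed from that at day 3 for 13 of 7941 genes (0.164%), a count that ran from 3 to 42 with 1 library left out. Of 11156 genes, it differed from that in the brain for 134 (1.2%) and from that in the ovary for 1793 (16.1%).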

How the results depend on the processing

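Of the settings tried, RLE scaling (334 genes, 331 shared with the 335), no filter on low counts (246, 215 shared), DESeq2 (481, 331 shared) and leaving out every library numbered 5 (297, 237 shared) kept the count of called genes within 1.5 times. It was 4172 with no scaling factor, where 1.63% of calls were higher in gamergates against 47.2%, 25 with lane as a term, where 88% were higher, and 206 in the 10 libraries alone (117 higher, 89 lower). Leaving out 1 library gave 153 to 390 genes, 3 to 42 for the change from day 3, 93 to 190 against the brain and 1466 to 1907 against the ovary. Whether the replicate number pairs gamergates with workers is not labelled. Correlations of same-numbered gamergates and workers ran from -0.0648 to 0.246, and only numbers 4 and 5 correlated best with their own number. Such low values cannot decide whether libraries of 1 number share an origin. With the replicate number as a block 286 genes were called, 267 of them shared, and 11 for the change from day 3, and no call of a named gene changed. With HSALG009096.2 out of the total, the gamergate minus worker differences were 2.29 percentage points for the 10 most-read genes, 3.29 for fat-body-enriched genes, -3.40 for reads in no gene, 7.90 for reads in several places and -0.285 for ambiguous reads. None of these passed the adjusted threshold (0.0635 to 0.292), that of brain-enriched genes moved from -0.128 to -0.0225 (adjusted exact permutation p = 0.833), and that of ovary-enriched genes turned from -0.0316 to 0.00857. The difference for reads in several places grew, however, from 4.11 percentage points, and all 5 gamergates stayed above all workers. Its unadjusted exact permutation p of 0.00794 was the lowest that 5 against 5 allows. Its adjusted value of 0.0635 thus depended on the other values in the adjustment, and does not mean a weaker difference. With 1 library left out, the difference in genes with a read ran from -829 to -557 and passed the threshold without worker 4 (adjusted exact permutation p = 0.0268). That of brain-enriched genes ran from -0.156 to -0.0817 and passed it without worker 4 or 5 (0.0268 and 0.0306). The causes were not tested. Counts were fewest for the 1457 genes below 10 CPM, of which 14 were called.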

Other observations

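The ovary library that carries the number 5 among day 10 gamergates also lay between the castes. Over the genes higher in gamergate ovaries, its median log2 level was -0.01 from day 0, against 0.36 to 0.42 in the other 4 gamergate ovaries and -0.63 to -0.16 in worker ovaries. Over the genes lower there, it was 0.06, against -0.46 to -0.35 and 0.22 to 0.87. Worker ovary 5 was the nearest of its caste to the gamergates in both sets (-0.16 and 0.22). Over the genes higher and lower in gamergate brains, the brain library of gamergate 5 was the farthest from the workers. It stood at 1.40 and -1.42, against 1.03 to 1.24 and -1.24 to -0.75 in the other gamergates. The brain sets held only 18 and 6 of 9886 genes tested (0.182% and 0.0607%). Those of the ovary held 2069 and 1967 of 9150 (22.6% and 21.5%). These genes were chosen on the same day 10 libraries, so the medians are a description. The labels do not say whether 1 number stands for 1 ant across tissues.

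Gamergates 1 to 4 were close to each other in the fat body. The chi-square per degree of freedom between pairs of them was 5.38 to 8.21, against 68.3 to 79.4 between gamergate 5 and each of them. Among workers it was 14.7 between numbers 4 and 5, 23.8 to 39.8 among numbers 1, 2 and 3, and 45.2 to 92.8 between the 2 sets of numbers. This value grows with depth and rests partly on the most-read genes. In workers 1, 2 and 3 and in gamergate 5 the gene with the most reads was not HSALG009096.2, and the gene in first place held 8.45% to 12.7% of their reads.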
